A study of Mus musculus with 6 samples.

Results

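The fibroblast growth factors (FGFs) and hepatocyte growth factor (HGF) are secreted ligands that act on receptor tyrosine kinases in the lung. The 10 transcripts described here were chosen by gene name from a table of 23194 genes: the ligands Hgf, Fgf1, Fgf2, Fgf7 and Fgf10, and the receptors Met, Fgfr1, Fgfr2, Fgfr3 and Fgfr4. The RNA came from the whole left lung of adult mice of the inbred strain C57BL/6, wild type in genotype. The 3 injured lungs had their left pulmonary artery tied for 4 h and then reperfused for 24 h, a warm ischemia-reperfusion injury, and the 3 naive lungs served as controls. The labels do not describe an operation on the naive mice, so effects of surgery and of ischemia cannot be told apart. The labels number the lungs of each group without naming the animals, so p-values measure the spread between these samples.

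HGF is secreted by mesenchymal and endothelial cells as an inactive precursor, is cleaved outside the cell, and signals through its receptor MET, mainly on epithelium. FGF7 and FGF10 are made by lung mesenchyme and bind a splice form of FGFR2 on epithelial cells, where they support growth and repair, and FGF signalling needs heparan sulfate as a cofactor. FGFR3 and FGFR4 act together in forming the elastic fibres of the mouse alveolus. Counts per gene do not separate splice forms, so epithelial and mesenchymal FGFR2 were not told apart.

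Fgfr4 was the 1 member of 10 that edgeR called as changed in injured lungs: its transcripts were at 0.50 times the naive level. The growth factors that the lung epithelium receives from its mesenchyme, Hgf, Fgf7 and Fgf10, had changes whose intervals spanned zero, as did Met, Fgf2, Fgfr2 and Fgfr3. Fgf1 and Fgfr1 were each at 0.76 times the naive level and did not pass the test. All 10 members passed the filter on low counts. Calls are those with adjusted p below 0.05 in edgeR's quasi-likelihood test over 15486 genes, a rule that 3.11% of all genes met in either direction, 2.16% as higher and 0.956% as lower in injured lungs. An unadjusted p under 0.05 was reached by 3 of 10 members and by 16.7% of all genes. The median log2 fold change was -0.19 over the 10 members and -0.00096 over all genes tested.

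The promoter windows of Fgfr4, the receptor called lower, and of Fgfr3 and Fgfr2, the most abundant FGF receptors, are shown. The RefSeq table holds a second window for Fgfr3, and the upstream one is printed. Sequences are from RefSeq (GRCm38.p6, the same build as mm10), run 5′ to 3′ on the gene's strand from 250 bases before the transcript start to 50 after it, and capitals mark the GC box GGGCGG or its reverse complement CCGCCC.

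Fgfr4, chr13:55152568-55152867, plus strand: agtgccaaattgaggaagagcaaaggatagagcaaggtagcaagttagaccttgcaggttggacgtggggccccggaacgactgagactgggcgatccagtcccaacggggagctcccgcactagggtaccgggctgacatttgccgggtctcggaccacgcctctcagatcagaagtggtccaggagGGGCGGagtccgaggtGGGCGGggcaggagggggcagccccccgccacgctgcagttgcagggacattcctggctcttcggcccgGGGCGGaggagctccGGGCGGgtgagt
Fgfr3, chr5:33721474-33721773, plus strand: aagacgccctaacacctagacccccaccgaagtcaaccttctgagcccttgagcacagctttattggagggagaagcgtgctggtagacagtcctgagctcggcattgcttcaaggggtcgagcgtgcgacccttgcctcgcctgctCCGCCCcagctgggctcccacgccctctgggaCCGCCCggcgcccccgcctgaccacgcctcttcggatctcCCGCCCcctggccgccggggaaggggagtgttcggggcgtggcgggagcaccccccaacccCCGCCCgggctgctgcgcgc
Fgfr2, chr7:130266759-130267058, minus strand: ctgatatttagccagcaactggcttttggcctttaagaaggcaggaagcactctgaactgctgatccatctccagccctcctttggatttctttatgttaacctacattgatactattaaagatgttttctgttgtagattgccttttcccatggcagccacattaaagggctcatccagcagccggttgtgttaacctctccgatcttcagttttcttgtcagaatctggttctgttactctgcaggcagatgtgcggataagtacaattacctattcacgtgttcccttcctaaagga

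The Fgfr4 window held 4 matches to the GC box, all on the gene's own strand. The printed Fgfr3 window held 4, all on the other strand, and the second Fgfr3 window (chr5:33722056-33722355) held 2, both on the gene's own strand, so the strand of the matches did not separate Fgfr3 from Fgfr4. The Fgfr2 window held 0. Of all 32851 windows of this length in the RefSeq table, 35.7% held at least 1 match on either strand and 5.49% held 4 or more. G and C made up 65.3% of the Fgfr4 window, 69.7% and 73.0% of the printed and second Fgfr3 windows and 43.7% of the Fgfr2 window, against a median of 52.7% over all windows. The TATA box TATAAA, searched on both strands, was in 13.6% of all windows and in none of the windows of these 3 genes. No match overlapped another in the 3 printed windows, while the 2 GC box matches of the second Fgfr3 window shared a base. These matches describe the letters, and binding to them was not tested.

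Library totals ran from 20062818 to 23638078 counts in injured lungs and from 18913487 to 34986276 counts in naive lungs. Levels are given as the authors' deposited FPKM, which divides counts by gene length and library total and so allows genes to be compared. Changes come from the counts, scaled by the trimmed mean of M values (TMM) to CPM, counts adjusted to a common library size. Lung identity markers were present at high level in both groups: Sftpc, the surfactant protein of alveolar type 2 cells, averaged 14305 ± 643 CPM in injured and 15756 ± 1021 CPM in naive lungs (SD, n = 3 each).

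Hgf (chromosome 5, 16553550 to 16619439 in the table's mm10 coordinates) had 11.6, 12.3 and 12.4 FPKM in injured lungs 1 to 3, against 12.4, 11.6 and 10.3 FPKM in naive lungs 1 to 3. The groups overlapped, and the log2 fold change of injured over naive was 0.070 ± 0.097 (SE, adjusted p = 0.788, edgeR). Its 95% interval ran from -0.15 to 0.29 on the log2 scale, or from 0.903-fold to 1.22-fold, and so a doubling of Hgf transcripts at this time lay outside it. Without naive replicate 3 the log2 fold change was 0.0074 and without naive replicate 1 it was 0.12.

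Fgf7 (chromosome 2, 126034658 to 126091185), also called keratinocyte growth factor, had 12.3, 11.2 and 13.8 FPKM in injured lungs, against 14.4, 11.3 and 9.88 FPKM in naive lungs. Naive lungs held both the highest and the lowest of these values. Its log2 fold change was 0.060 ± 0.14, with a 95% interval from -0.26 to 0.38 (edgeR, adjusted p = 0.885). Fgf10 (chromosome 13, 118669791 to 118792115), the ligand that lung branching requires, had 5.39, 6.91 and 7.24 FPKM in injured lungs, against 6.86, 6.62 and 7.50 FPKM in naive lungs. Injured lung 1 was the lowest of the 6 and the other injured lungs lay within the naive range. Its log2 fold change was -0.12 ± 0.13, with a 95% interval from -0.41 to 0.17 (edgeR, adjusted p = 0.719).

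Fgf1 (chromosome 18, 38838673 to 38929404), a ligand that binds all FGF receptors, was the most abundant of the 10 transcripts. It had 70.6, 66.8 and 51.7 FPKM in injured lungs, against 86.6, 80.0 and 78.8 FPKM in naive lungs. Every injured lung lay below every naive lung, with injured lung 3 the lowest. The log2 fold change of -0.39 ± 0.12 missed the threshold in edgeR (adjusted p = 0.129), and its 95% interval was -0.66 to -0.12. DESeq2 called Fgf1 lower (log2 fold change -0.40, adjusted p = 0.0402), as it did 2.69% of the genes to which it gave an adjusted p. The authors' deposited table likewise gave Fgf1 a log2 fold change of -0.36 with an adjusted p of 0.0440, and 2.54% of its genes with an adjusted p were lower at this threshold. Without injured lung 3 the log2 fold change was -0.27.

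Fgf2 (chromosome 3, 37312519 to 37405377), or basic FGF, was the least abundant member and the least precisely measured. It had 2.49, 1.98 and 3.89 FPKM in injured lungs, against 3.0, 2.52 and 5.05 FPKM in naive lungs, from 55 to 114 counts in injured and 59 to 219 counts in naive libraries. The lung numbered 3 was the highest of its group in both groups, and the groups overlapped. The log2 fold change was -0.37 ± 0.34 (95% interval -1.13 to 0.40, edgeR, adjusted p = 0.657), and it was 0.0063 without naive lung 3 and -0.69 without injured lung 3. In GENCODE M21 exons of Fgf2 overlap those of Nudt6 on the opposite strand and of Gm43439 on the same strand, and the sources used here do not give the strand setting of the counting, so this count is uncertain.

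**Figure D1:**
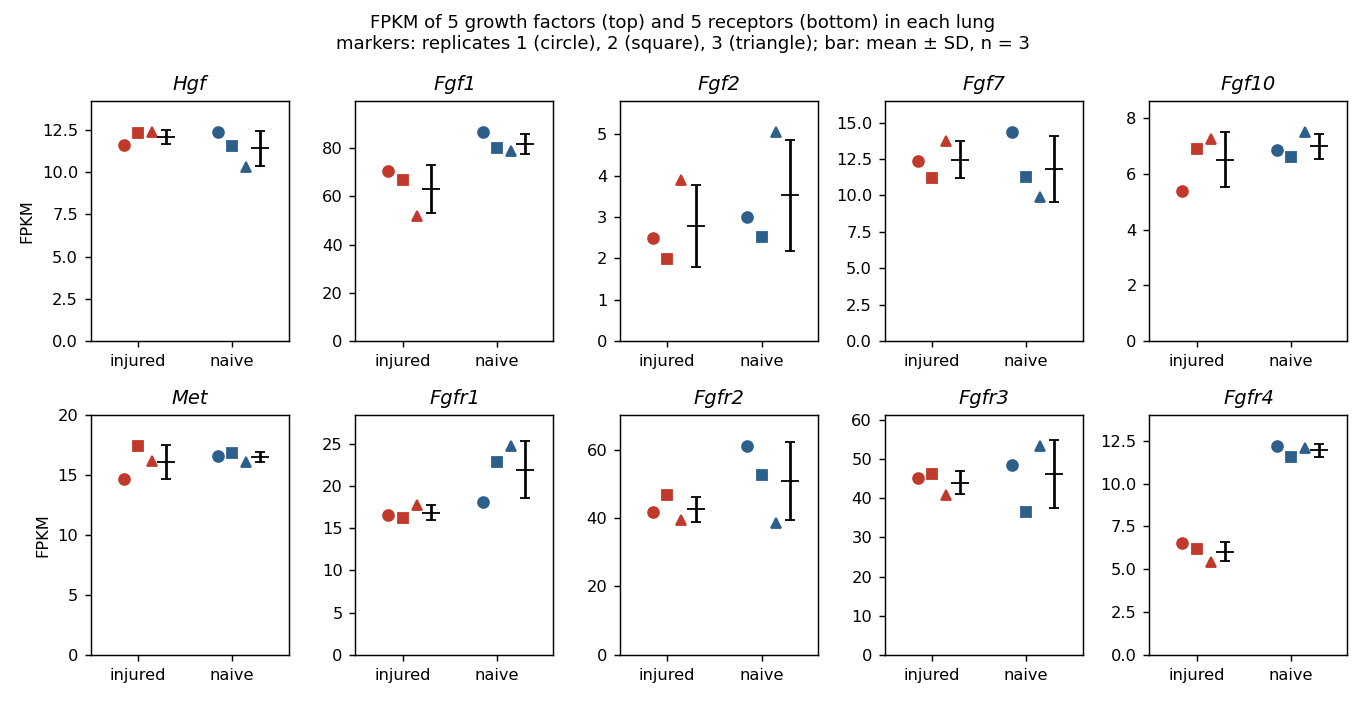
FPKM of each transcript (y axes, starting at 0, each with its own scale) in 3 injured and 3 naive lungs. Points are lungs, with a marker for each replicate number, and black bars are means ± SD (n = 3). The injured points of Fgfr4 sit between 5.42 and 6.51 FPKM and its naive points between 11.5 and 12.2 FPKM, while the points of Hgf, Met, Fgf7 and Fgf10 overlap between the groups.

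Met (chromosome 6, 17463800 to 17573980), the HGF receptor, had 14.6, 17.4 and 16.1 FPKM in injured lungs, against 16.6, 16.9 and 16.1 FPKM in naive lungs. Injured lungs held both the highest and the lowest values. The log2 fold change was -0.055 ± 0.089, and its 95% interval, -0.25 to 0.14, was the narrowest of the 10 members (edgeR, adjusted p = 0.826). The log2 ratio of Hgf to Met FPKM within a lung was -0.40 ± 0.085 in injured and -0.53 ± 0.10 in naive lungs (SD, n = 3 each). The difference of 0.13 gave p = 0.2 in an exact two-sided permutation test (0.6 adjusted over the 3 ratios tested), where 0.1 is the smallest p that 3 against 3 lungs allow.

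Fgfr4 (ENSMUSG00000005320, chromosome 13, 55152640 to 55168759) had 6.51, 6.17 and 5.42 FPKM in injured lungs, against 12.2, 11.5 and 12.1 FPKM in naive lungs. The groups were well apart, since the highest injured lung stood at 6.51 FPKM and the lowest naive lung at 11.5 FPKM. The underlying counts were 434, 460 and 426 in injured libraries and 1199, 725 and 1405 in naive libraries. In CPM, Fgfr4 averaged 19.96 ± 1.82 in injured and 39.9 ± 1.42 in naive lungs (SD, n = 3 each). Fgfr4 had a log2 fold change of -1.001 ± 0.10, with a 95% interval from -1.23 to -0.77 (edgeR, adjusted p = 0.00126). Among all genes lower in injured lungs this was number 4 by p-value. The authors' deposited table gave Fgfr4 a log2 fold change of -0.93 with an adjusted p of 1.91e-12. Leaving out any 1 of the 6 libraries gave log2 fold changes from -1.06 to -0.93, and the call held each time, with edgeR's adjusted p at most 0.00844. No other gene of GENCODE M21 lies within the span of Fgfr4, so its reads are not shared with an overlapping gene.

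In whole-lung RNA, fewer cells of a type and less RNA per cell cannot be told apart. Neutrophil markers differed between the same groups as Fgfr4: 8 of 10 were called higher in injured lungs, their summed level was 716 to 1447 CPM in injured and 109.4 to 154 CPM in naive lungs, and none was at 0 in all libraries. The count was 5 without naive replicate 1. Of 12 macrophage and monocyte markers 7 were called higher, with sums of 1816 to 1913 CPM in injured and 1012 to 1317 CPM in naive lungs and none at 0. That count was 3 without injured replicate 1 or naive replicate 1, 2 without injured replicate 2 and 4 without naive replicate 2. The part of these cells in the fall of Fgfr4 was not tested.

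Markers of resident lung cells gave fewer calls. Among 15 fibroblast and lipofibroblast markers, 1 was called higher and 2 were called lower, with a median log2 fold change of -0.066 and sums of 4997 to 5572 CPM in injured and 5285 to 6146 CPM in naive lungs. The higher one was the lipid-handling enzyme gene Lpl (log2 fold change 0.77 ± 0.13, edgeR, adjusted p = 0.0127), and the lower ones were the matrix genes Npnt (-0.83 ± 0.16, adjusted p = 0.0253) and Col14a1 (-0.60 ± 0.13, adjusted p = 0.0399). Without injured replicate 1 or naive replicate 2 none of the 3 was called, and without injured replicate 2 or 3 neither of the lower ones was. Without naive replicate 3 Col14a1 was not called, nor was it by limma-voom or the non-robust fit, and fibroblast genes called higher numbered 2 with DESeq2 or with no filter on low counts. The single genes called elsewhere were the smooth muscle actin Actg2 among 10 smooth muscle and pericyte markers (-0.82 ± 0.13, adjusted p = 0.0119), the tight junction gene Cldn18 among 10 alveolar type 1 cell markers (-0.53 ± 0.11, adjusted p = 0.0325), and Tppp3, of ciliated cells, among 9 airway markers (-0.56 ± 0.12, adjusted p = 0.0312). These 3 genes were lower in injured lungs. An alveolar type 1 marker was called in the other direction, 1 higher, with DESeq2, with library size alone and with no filter on low counts, and DESeq2 called 2 markers of that list and 2 of smooth muscle lower. Actg2 lost its call without injured replicate 1 or naive replicate 2, Cldn18 without injured replicate 2 or 3 or naive replicate 1 or 2, and Tppp3 without any 1 library except injured replicate 3. Smooth muscle and pericyte genes called lower numbered 3 without injured replicate 3 and 2 without naive replicate 1, and alveolar type 1 genes 2 without injured replicate 1. None of 10 alveolar type 2, 12 endothelial, 6 mesothelial or 7 heart muscle markers was called by edgeR. At an unadjusted p under 0.05 there were 3, 1, 1 and 1 of them, and the medians of the lists were 0.099, -0.072, -0.077 and -0.72. DESeq2 called 2 alveolar type 2 markers and 1 mesothelial marker higher, while limma-voom called 0, and edgeR with no filter or with the replicate block called 1 mesothelial marker higher. Without injured replicate 3, edgeR called 1 mesothelial marker higher and 1 heart muscle marker lower.

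Fgfr1 (chromosome 8, 25513654 to 25575714), the main FGF receptor of mesenchymal cells, had 16.6, 16.2 and 17.8 FPKM in injured lungs, against 18.1, 22.8 and 24.7 FPKM in naive lungs. Every injured lung lay below every naive lung, and naive lung 1 was the closest to the injured ones. A log2 fold change of -0.40 ± 0.12 missed the threshold with all 6 libraries (95% interval -0.67 to -0.12, edgeR, adjusted p = 0.137). Without naive replicate 1 it was -0.53, and the gene was called lower (adjusted p = 0.0353). Fgf1, Fgfr1 and Fgfr4 were the 3 of 10 members whose CPM did not overlap between the groups with all injured lungs lower, a pattern that 10.6% of all genes tested showed.

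Fgfr2 (chromosome 7, 130162451 to 133123350), the receptor of FGF7 and FGF10, had 41.7, 46.7 and 39.5 FPKM in injured lungs, against 61.1, 52.7 and 38.6 FPKM in naive lungs. The naive lungs spread widely, and naive lung 3 lay below every injured lung. The log2 fold change was -0.26 ± 0.15 with a 95% interval from -0.60 to 0.072 (edgeR, adjusted p = 0.425), and it was -0.13 without naive replicate 1 (adjusted p = 0.734) and -0.42 without naive replicate 3 (adjusted p = 0.0683). The annotated span of Fgfr2 holds parts of 69 other genes in GENCODE M21, of which Ctbp2 shares exon bases with it on the same strand. Fgfr3 (chromosome 5, 33721724 to 33737068) had 45.1, 46.1 and 40.7 FPKM in injured lungs, against 48.5, 36.5 and 53.3 FPKM in naive lungs. Naive lungs again held both extremes, and the log2 fold change was -0.086 ± 0.14 (95% interval -0.40 to 0.23, edgeR, adjusted p = 0.824). The exons of Fgfr3 overlap those of G630022F23Rik on the opposite strand by 998 bases.

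**Figure D2:**
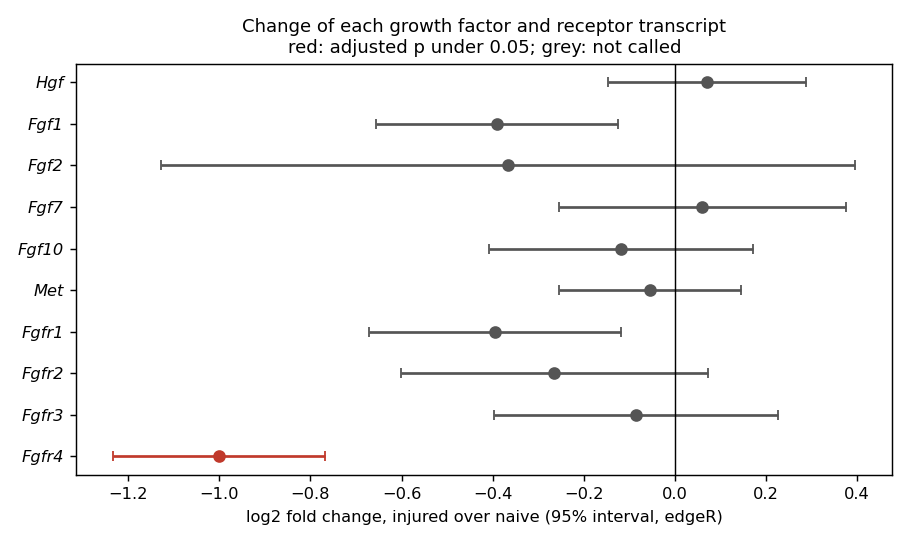
Log2 fold change of injured over naive lungs (x axis) for each growth factor and receptor transcript, with 95% intervals from edgeR (n = 3 lungs each). Fgfr4, in red, is the 1 called transcript at -1.001. The intervals of Fgf1 and Fgfr1 also lie below zero, but their adjusted p of 0.129 and 0.137 missed the threshold.

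The make-up of the FGF receptor transcripts differed accordingly. Fgfr4 supplied 5.92%, 5.36% and 5.24% of the summed FPKM of the 4 receptors in injured lungs, against 8.72%, 9.33% and 9.38% in naive lungs, with no overlap. Fgfr3 supplied 40.1% ± 0.843 in injured and 35.2% ± 5.96 in naive lungs, and Fgfr2 38.9% ± 1.43 in injured and 38.8% ± 7.61 in naive lungs (SD, n = 3 each). Fgfr1 supplied 15.4% ± 1.604 in injured and 16.9% ± 3.42 in naive lungs, so that only the share of Fgfr4 among these 4 was separate between the groups. The summed FPKM of the 4 receptors was 109.9, 115.1 and 103.5 in injured lungs, against 140.0, 123.5 and 128.7 in naive lungs. The shares were chosen for description after the values were seen and were not tested. Their sizes also rest on the deposited gene lengths of the 4 receptors.

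**Figure D3:**
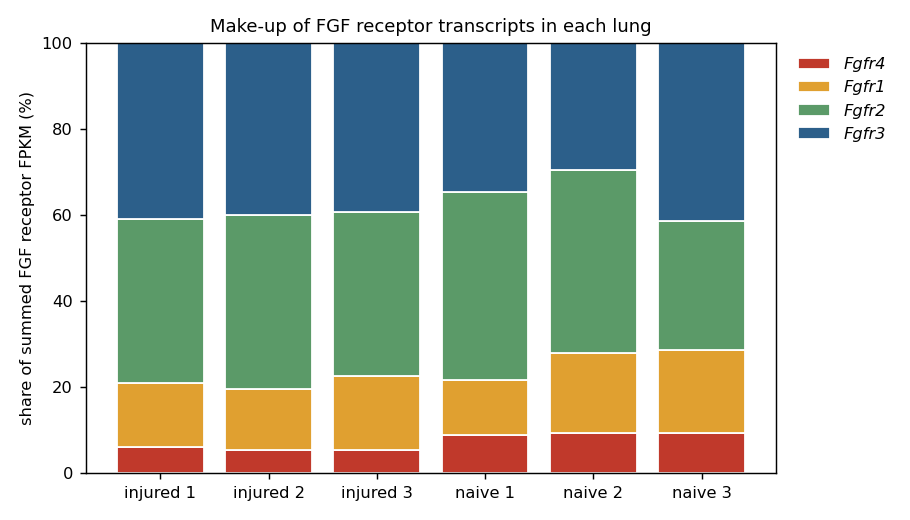
Share of each receptor in the summed FPKM of the 4 FGF receptors (y axis, percent) in each lung, injured lungs at left. Fgfr4, at the base of the bars, takes 5.24% to 5.92% in injured and 8.72% to 9.38% in naive lungs.

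The balance between receptors and between ligands was compared within lungs. The log2 ratio of Fgfr2 to Fgfr1 FPKM was 1.33 ± 0.19 in injured and 1.20 ± 0.55 in naive lungs (SD, n = 3 each; difference 0.14, exact two-sided permutation p = 0.8, 0.8 adjusted over the 3 ratios). It was 1.75, 1.20 and 0.64 in naive lungs 1 to 3, so the spread among naive lungs exceeded the difference between groups, and without naive replicate 3 the difference was -0.14. The log2 ratio of Fgf7 to Fgf10 FPKM was 0.93 ± 0.24 in injured and 0.74 ± 0.33 in naive lungs (SD, n = 3 each; difference 0.19, exact permutation p = 0.5, 0.75 adjusted). That difference was 0.024 without naive replicate 3 and 0.35 without naive replicate 1.

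Ordered by mean FPKM, the injured lungs had Fgf1 (63.0), Fgfr3 (44.0), Fgfr2 (42.6), Fgfr1 (16.8), Met (16.1), Fgf7 (12.4), Hgf (12.1), Fgf10 (6.51), Fgfr4 (6.03) and Fgf2 (2.79). Values of the neighbours Fgfr3 and Fgfr2, Fgfr1 and Met, Fgf7 and Hgf, and Fgf10 and Fgfr4 overlapped between lungs, and those of the other neighbours did not. In naive lungs the order of mean FPKM was Fgf1 (81.8), Fgfr2 (50.8), Fgfr3 (46.1), Fgfr1 (21.9), Met (16.5), Fgfr4 (11.9), Fgf7 (11.8), Hgf (11.4), Fgf10 (6.99) and Fgf2 (3.52). There Fgfr2 and Fgfr3, Fgfr4 and Fgf7, and Fgf7 and Hgf overlapped. Fgfr4 thus stood level with Fgf7 and Hgf in naive lungs and level with Fgf10 in injured lungs. The order rests on the deposited lengths, which for Fgf2 (1240 bases) and Hgf (2755 bases) are far below the summed exons of GENCODE M21 (6782 and 7186 bases). Deposited lengths of Fgfr1, Fgfr2 and Fgfr3 (5041, 4429 and 4245 bases) are also well below their summed exons (9875, 10328 and 7158 bases). For Fgfr4 the lengths are close (3324 and 3542 bases). Exons of Hgf, Fgf10 and Fgfr1 overlap those of another annotated gene by 484, 123 and 164 bases, and those of Met, Fgf1, Fgf7 and Fgfr4 overlap none.

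The 3 genes whose log2 CPM was most like that of Fgfr4 over the 6 libraries, among 11645 genes with a mean of at least 5 CPM, were Zfp398, Klrb1b and Pde3a, with Pearson correlations of 0.998, 0.996 and 0.995. The libraries form separate groups, so these values mostly restate a shared difference between them. Pde3a, a phosphodiesterase of cyclic nucleotides, had 106, 103 and 96.9 CPM in injured lungs, against 175, 180 and 190 CPM in naive lungs (log2 fold change -0.83 ± 0.083, edgeR, adjusted p = 0.000996). Klrb1b, a lectin-like receptor of natural killer cells, had a log2 fold change of -1.04 ± 0.18 (edgeR, adjusted p = 0.0135). Zfp398, a zinc finger protein, had one of -0.31 ± 0.13 and did not pass the test (adjusted p = 0.255).

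The other genes of the pathways were read from 7 lists. Of 88 listed genes 81 were in the table and 71 were tested, and edgeR called 1 higher and 3 lower, or 5.63% against the 3.11% of all genes. The 3 lower were 4.23% of the 71, against 0.956% of all genes, and the 1 higher stood against 2.16% of all genes. The median log2 fold change of the 71 was -0.052. These counts changed when 1 library was left out. With any 1 library except naive replicate 3 left out, 0 genes were called higher. Without injured replicate 1, naive replicate 2 or naive replicate 3, 0 were called lower. The number lower was also 1 without injured replicate 3.

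No gene was called by edgeR among the other ligands, the FGF homologous factors, the co-receptors, carriers and docking proteins, or the HGF activation genes. Of 14 other secreted FGF ligands 8 were in the table and 2 were tested, of which Fgf18 had 11.9 ± 2.88 CPM in injured and 11.4 ± 1.63 CPM in naive lungs (SD, n = 3 each). Fgf9, the other, had few reads, with 7, 6 and 2 counts in injured and 26, 13 and 25 counts in naive libraries, and its log2 fold change of -1.73 ± 0.51 did not pass the test (edgeR, adjusted p = 0.121). None of 4 intracellular FGF homologous factors and none of 8 tested co-receptors, carriers and docking proteins was called. The most abundant of these were Fgf11 (log2 fold change 0.17 ± 0.19, edgeR, adjusted p = 0.721) and Flrt3, a membrane partner of FGF receptors (-0.15 ± 0.13, adjusted p = 0.644). Among the 9 tested genes for HGF activation, its inhibitors and the related ligand and receptor pair MSP and RON, none was called and the median log2 fold change was 0.12. Spint2, an inhibitor of HGF-activating proteases, had 237 ± 11.6 CPM in injured and 218 ± 6.67 CPM in naive lungs (SD, n = 3 each; log2 fold change 0.12 ± 0.082, edgeR, adjusted p = 0.542). The epithelial protease St14, or matriptase, which cleaves the HGF precursor, had a log2 fold change of 0.088 ± 0.090, and the urokinase gene Plau one of 0.070 ± 0.18 (edgeR, adjusted p = 0.696 and 0.893). St14 and Plau were picked for their role outside the naming rule. At an unadjusted p under 0.05 there were 1 ligand, 0 homologous factors, 1 co-receptor or carrier and 0 HGF activation genes, and DESeq2 and limma-voom called 0 in these lists. Without injured replicate 2, 1 co-receptor or carrier was called lower, and without naive replicate 3, 1 HGF activation gene was called higher.

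Cd44, a hyaluronan receptor whose variant forms are MET co-receptors, was the 1 of 10 MET adaptors and partners that was called. It had 202, 195 and 215 CPM in injured lungs, against 162, 156 and 160 CPM in naive lungs, with no overlap (log2 fold change 0.35 ± 0.080, edgeR, adjusted p = 0.0474). Of all genes tested, 12.3% likewise had every injured lung above every naive lung. Leucocytes express Cd44 widely, and the neutrophil markers given above were higher in the same lungs, so whether its rise lay in them was not tested. The call was lost without any 1 library (adjusted p 0.0740 to 0.204), and the log2 fold change then ran from 0.32 to 0.39. With all 6 libraries, Cd44 also missed the threshold in edgeR with DESeq2's size factors (adjusted p = 0.0509), the non-robust fit (0.0504) and the replicate block (0.0686), and in limma-voom (0.0545).

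Of 16 tested ERK feedback and FGF response genes, Ccnd1 was called. This gene encodes cyclin D1, which drives entry into the cell cycle. It had 138, 140 and 126 CPM in injured lungs, against 169, 205 and 225 CPM in naive lungs, with all injured lungs lower (log2 fold change -0.57 ± 0.11, edgeR, adjusted p = 0.0278). The call held without naive replicate 1 and was lost without any other library (adjusted p up to 0.117). Canonical feedback inhibitors of FGF signalling did not pass the test: Dusp6, an ERK phosphatase, had a log2 fold change of -0.21 ± 0.17, and the Sprouty genes Spry2 and Spry4 had -0.20 ± 0.14 and -0.28 ± 0.19. Etv5, an ETS factor of alveolar type 2 cells induced by FGF, had 0.097 ± 0.20 (edgeR, adjusted p = 0.604, 0.508, 0.533 and 0.874 for these 4). Etv1 and the receptor inhibitor Il17rd came closer, at -0.52 ± 0.13 and -0.41 ± 0.11 (edgeR, adjusted p = 0.0728 and 0.0752). Both were called lower by DESeq2 and with no filter on low counts, and Etv1 also with the replicate block. At an unadjusted p under 0.05 (edgeR) there were 4 of the 16. Of these, Dusp5 was higher in injured lungs (log2 fold change 0.33 ± 0.13, edgeR, adjusted p = 0.249), while Ccnd1, Etv1 and Il17rd were lower. Apart from Ccnd1, the genes of this list were named outside the rule after their values were seen.

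Heparan sulfate genes held the other calls. Of 22 genes for its synthesis, editing and core proteins 2 were called lower, both glypicans, which anchor heparan sulfate at the cell surface. Gpc3 had 148, 166 and 104 CPM in injured lungs, against 228, 280 and 287 CPM in naive lungs, with no overlap (log2 fold change -0.93 ± 0.17, edgeR, adjusted p = 0.0284). Gpc6 had 6.90, 6.69 and 6.83 CPM in injured lungs, against 9.58, 12.1 and 12.0 CPM in naive lungs (log2 fold change -0.72 ± 0.15, edgeR, adjusted p = 0.0358). Both groups were again separate, with naive lung 1 the nearest to the injured lungs in each gene. Gpc3 lost its call without injured replicate 1, naive replicate 2 or naive replicate 3 (adjusted p up to 0.111), and Gpc6 without any 1 library except naive replicate 1 (adjusted p up to 0.161). With all 6 libraries, Gpc6 missed the threshold in limma-voom (adjusted p = 0.0602) and with the replicate block (edgeR, adjusted p = 0.0508). DESeq2 called 5 genes of this list lower. The median of the 22 genes was -0.035, close to that of all genes. At an unadjusted p under 0.05 (edgeR) there were 7 of the 22, all but Glce lower, against 16.7% of all genes in either direction. The summed level of the 22 was 2889 to 3171 CPM in injured and 3283 to 4029 CPM in naive lungs.

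**Figure D4:**
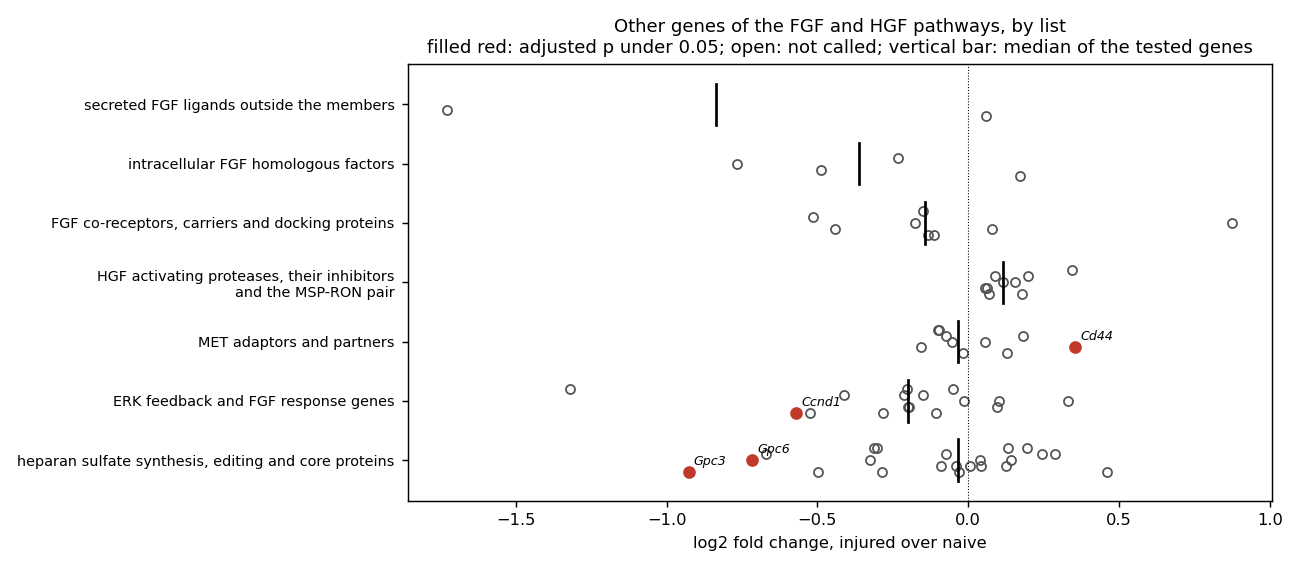
Log2 fold change of injured over naive lungs (x axis) for the 71 tested genes of 7 FGF and HGF pathway lists (rows). Each point is a gene, filled red where edgeR's adjusted p was under 0.05, and bars mark the median of each list. Cd44 lies to the right at 0.35, and Ccnd1, Gpc6 and Gpc3 to the left at -0.57, -0.72 and -0.93.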

How the data were processed

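Per the submitters' processing notes, STAR, HTSeq, DESeq2, edgeR and STAR-Fusion were used with mm10; the sources used here give neither versions nor settings. Per the file headers, the authors deposited read counts per gene, FPKM, log2 fold changes and p-values with adjusted p-values. The deposited signal columns hold normalized counts: each library's counts over a single size factor. These, and the deposited FPKM recomputed from counts, gene lengths and column totals, held within a relative tolerance of 1e-06. Libraries were 150-base paired-end reads per the labels.

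Counts were filtered by filterByExpr and scaled by TMM. The groups were tested by quasi-likelihood F in edgeR 4.0.16 under R 4.3.3, with robust estimation and no covariates. P-values were two-sided and adjusted by Benjamini-Hochberg over 15486 genes. The SE is the log2 fold change divided by the square root of F, and intervals use the test's degrees of freedom. Ratios used log2(FPKM + 0.1). Alternatives were other scalings and filters, DESeq2 1.42.0, limma-voom (limma 3.58.1), a non-robust fit, a replicate block and each library left out. Depth limits precision as the counts given beside low genes show.

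The members and lists were chosen with earlier results of these data known. Named genes are all members, up to 3 called genes per list and direction or the most abundant member of a list with none, and the 3 genes most like a called member. Promoter windows of 8 members were in the RefSeq table used. List symbols were matched by name or by gene identifier through GENCODE M21.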

Additional observations from a re-analysis of the deposited data

How the results depend on the processing

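Fgfr4 kept its direction and call under all 14 alternatives, at log2 fold changes from -1.06 to -0.93. DESeq2 called 585 genes higher and 417 lower against 334 and 148, 8 pathway genes lower against 3, and 2 members lower, adding Fgf1 at -0.40. With no filter on low counts 269 genes and 5 pathway genes were lower. Pathway genes called higher numbered 0 with DESeq2's size factors, limma-voom, the non-robust fit and the replicate block, where Cd44 lost its call. The causes were not tested. With each library left out, genes called higher ran from 145 to 333 and lower from 48 to 146, pathway genes higher from 0 to 1 and lower from 0 to 4, and members lower from 1 to 2. Log2 fold changes then ran from 0.0074 to 0.12 for Hgf, -0.12 to 0.0090 for Met, -0.48 to -0.27 for Fgf1, -0.69 to 0.0063 for Fgf2, -0.051 to 0.21 for Fgf7, -0.20 to 0.00097 for Fgf10, -0.24 to 0.041 for Fgfr3, -0.53 to -0.29 for Fgfr1, -0.42 to -0.13 for Fgfr2, -0.060 to 0.25 for Fgf18, -0.12 to 0.23 for Etv5 and -0.048 to 0.20 for Plau. The differences in ratios ran from -0.14 to 0.41 for Fgfr2 to Fgfr1, 0.024 to 0.35 for Fgf7 to Fgf10 and 0.079 to 0.18 for Hgf to Met. Fits without 1 library of a group assume that its other 2 vary like the rest. Whether the replicate numbers pair the lungs was not settled. Deviations of like-numbered lungs 1, 2 and 3 correlated between the groups at 0.095, -0.084 and 0.18. Those of lungs with unlike numbers correlated at -0.32 to 0.30. With the replicate numbers as a block, 413 genes were called higher and 208 lower, and Fgfr4 stayed at -1.004 (edgeR, adjusted p = 0.00247). The pathway genes called lower with the block numbered 3, without Gpc6 and with Etv1.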
